A study of Rattus norvegicus with 12 samples.

Results

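Primary hippocampal cultures kept for 26 h with blockers of AMPA and NMDA receptors were compared with untreated cultures of the same time, over all genes that the arrays measured. The members were the 6 arrays labelled as 26 h samples, 3 blocked and 3 untreated, out of 12 arrays in the series. All cultures came from hippocampi of embryonic day 18 Wistar rats and were 14 to 15 days in vitro. Blocked cultures received 50 µM GYKI-52466 together with 10 µM MK-801, and untreated cultures were kept in control conditions. The other 6 arrays were 3 blocked and 3 untreated cultures at 9 h. The labels call the cultures of a group independent, give no animal for each culture, and state that RNA was labelled with Cy3 and hybridised to single-colour Agilent rat arrays. These dissociated cultures hold glia as well as neurons, and fewer cells of a type and less RNA per cell cannot be told apart in them.

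GYKI-52466 is a noncompetitive antagonist of AMPA receptors, which carry most fast excitatory transmission, and MK-801 blocks the open channel of NMDA receptors, which admit calcium. Calcium that enters a firing neuron drives kinases and transcription factors such as CREB and SRF, which switch on immediate early genes within minutes and late genes for growth factors, neuropeptides and synaptic proteins afterwards. Cultured neurons deprived of excitatory input for a day or more are known to scale up their synaptic strength, a slow form of homeostatic plasticity. The comparison shows the RNA levels reached after such a period of blockade.

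Levels are given on the log2 scale relative to the 75th percentile of each array, so 0 is the level of a spot brighter than 75% of the non-control spots. Between 77.6% and 85.1% of non-control spots on each 26 h array lay well above background. Across genes, the arrays of a group correlated at 0.987 to 0.994 in untreated and 0.989 to 0.993 in blocked cultures. Of markers for the labelled cell type, all 5 of neurons and all 3 of 4 hippocampal identity genes that could be measured lay above background on every 26 h array. The 5 neuronal markers changed by -0.41 to 0.16 and none passed the test. All 6 astrocyte markers were also above background on every 26 h array, with changes of -0.29 to 0.10 and none past the test, and 4 of 5 microglial markers were above background on all of them. Summed levels of the 5 meningeal and fibroblast markers ran from 1.26 to 4.63 in untreated and from 1.14 to 4.92 in blocked cultures, with replicate 3 the highest in both groups.

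Scan day and treatment were not separable at 26 h. Per the file headers, the 3 blocked 26 h arrays were scanned on the first day, on 3 slides shared with the untreated 9 h arrays, and the 3 untreated 26 h arrays on the second day, on 3 slides shared with the blocked 9 h arrays. The order of the days was thus reversed between the times. The 10 E1A spike-in control probes, which are added to each labelling reaction and not made by the cells, were all lower on the blocked 26 h arrays, with no overlap between groups. The 3 of them that were unsaturated and well above background on every array differed by -5.06 to -4.79 at 26 h and by 4.30 to 4.78 at 9 h. At 26 h another 5 were saturated on at least 1 array and 2 were not well above background on the blocked arrays, so their differences have no exact size. The part of scan day in the 26 h differences cannot be told apart from that of blockade within the 26 h arrays, so the 9 h effect and, where useful, the average over both times, in which the days cancel, stand beside the 26 h values. Blockade at 9 h and at 26 h share no array.

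After 26 h of blockade, 1462 genes or unnamed targets were higher (6.88% of 21243 tested) and 2013 were lower (9.48%), 3475 in all (16.4%), by limma with Benjamini-Hochberg adjustment at 0.05. At least 2-fold changes numbered 174 up and 299 down, and at least 4-fold changes 11 up and 76 down. The blocked and untreated arrays did not overlap for 1459 of the higher and 2000 of the lower ones. Over all genes the median change was -0.05 with a median SE of 0.17, and the median SD between arrays was 0.18 in untreated and 0.17 in blocked cultures. With the replicate number as a block, 2830 were higher and 3909 lower, and all 3475 calls were kept. Block counts of the lists below belong beside these larger totals. They do not compare with the 9.48% and 6.88% of the main fit. Leaving out an array lowered the counts most for untreated replicate 2, to 507 higher and 840 lower. They were 731 and 1114 without untreated replicate 3, 672 and 1065 without blocked replicate 1, and 605 and 1013 without blocked replicate 2. Without all arrays numbered 3, 198 were higher and 279 lower, and 64 of the 117 genes past the test that the naming rule picked no longer passed. For 23 of these 64 that was the only setting that ended the call, among them Ces1d, Thrsp, Dusp10, Gfra1, Acvr2b, Tgfb3, Nptx2, Grin1, Baiap2, Syn1, Pde1a, Bhlhe22, Pou3f1, Cacna1i, Kcna2, Camk1g, Fdft1, Hsph1, Sdhd and Pdk3.

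At 9 h, 2430 genes were higher (11.4%) and 2048 lower (9.64%). The 9 h counts of the lists below belong beside these shares. Of the 1462 genes higher at 26 h, 112 (7.66%) were also higher at 9 h and 593 (40.6%) were lower there. Of the 2013 lower at 26 h, 137 (6.81%) were also lower at 9 h and 969 (48.1%) were higher there. The larger falls had a greater share in the same direction: of the 299 at least 2-fold lower, 85 were lower and 75 higher at 9 h, and of the 76 at least 4-fold lower, 33 were lower and 25 higher. Among the 174 at least 2-fold higher, 35 were higher and 27 lower at 9 h, and among the 11 at least 4-fold higher, 2 were higher and 4 lower. The difference between the 26 h and 9 h effects passed the test for 6075 genes (28.6%), a contrast that cannot be told apart from scan day. The average of both effects passed for 944 (4.44%), of which 311 were lower and 245 higher also at 26 h.

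**Figure D1:**
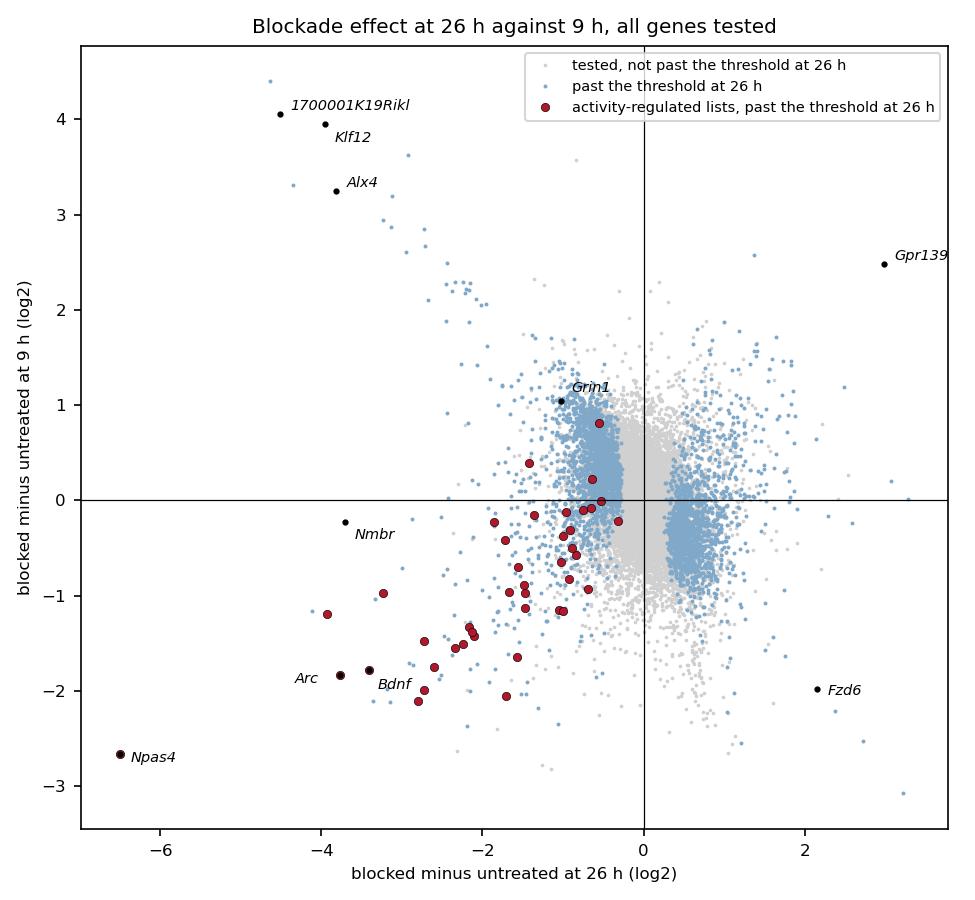
Each point is a gene: the x axis gives blocked minus untreated at 26 h and the y axis the same at 9 h, both in log2 units. Grey points did not pass the test at 26 h, blue points did, and red points are members of the 2 activity-regulated lists that passed at 26 h. Black points carry gene names. Most red points lie at the lower left, while many blue points lie at the upper left and lower right, where the sign differs between the times.

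Immediate early transcription factors are the first genes that synaptic activity induces. Of 26 measured members, 15 were lower, none was higher and 11 did not pass, with a median of -0.85. Over all genes 9.48% were lower, so the 57.7% of this list stood beside a far smaller background; the list was chosen with earlier results of these data in view. The 15 were Npas4, Nr4a1, Nfil3, Nr4a2, Fos, Egr4, Egr1, Junb, Fosl2, Ier2, Crem, Maff, Atf3, Btg2 and Jund. At 9 h, 11 members were lower and 1 higher, 10 of the 15 being lower at both times, and 13 were lower in the average.

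Npas4, a neuron-specific factor that calcium entry induces, fell furthest. Its levels were -2.29, -1.33 and -2.0 in the untreated cultures, against -8.14, -8.10 and -8.88 in the blocked ones, where it was not well above background on any array. The fall was therefore at least 58.2-fold, set against the lowest signal among probes well above background on each array, as for every such bound here (fitted change -6.50 ± 0.56 SE, adjusted p = 0.00020). At 9 h it had changed by -2.66 (adjusted p = 0.0088). With normexp background correction, which compresses dim signals, the 26 h change was -3.79.

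Nr4a1, an orphan nuclear receptor, was at 2.75, 2.02 and 1.39 in untreated and at -1.96, -1.76 and -1.91 in blocked cultures. All 3 blocked arrays lay far below all 3 untreated ones, a 15.2-fold fall (-3.93 ± 0.34, adjusted p = 0.00020), against -1.20 at 9 h. Its relative Nr4a2 changed by -2.72 at 26 h and -1.99 at 9 h. Nfil3, a bZIP repressor that also belongs to the clock list, stood at 0.57, 0.88 and 0.48 without and at -2.62, -2.99 and -2.16 with blockade (-3.24 ± 0.19, adjusted p = 2.1e-05), and changed by -0.97 at 9 h.

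Fos, which pairs with Jun proteins in AP-1, was at 0.36, 0.46 and -0.06 in untreated and -2.21, -2.19 and -1.35 in blocked cultures (-2.17 ± 0.27, adjusted p = 0.0013), against -1.32 at 9 h. Egr1, a zinc finger factor of the same early wave, was at 0.85, 1.33 and 1.01 and at -0.81, -0.89 and -0.69 (-1.86 ± 0.31, adjusted p = 0.0043), while its 9 h change of -0.23 did not pass. Groups did not overlap for either gene at 26 h. Jund, a Jun family member, ran the other way at 9 h: it changed by -0.55 at 26 h and by 0.81 at 9 h, both past the test. Among members named after their values were seen, Egr2 and Egr3 had changes of 0.04 and -0.18 and Jun of 0.48, none past the test.

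Because these genes fell together, the 250 bases before 1 start of each were searched for the letters of the cAMP response element, to which CREB binds. Any other start of a gene, for Bdnf too, was not searched. RefSeq promoters of the GRCr8 build were at hand for 13 of the 15 lower members. The core letters TGACG, on either strand, occurred in 11 of the 13 (84.6%), against 2646 of 10111 promoters of genes tested (26.2%). They occurred in 295 of 992 promoters of all genes lower at 26 h (29.7%) and in 229 of 765 of those higher (29.9%). The full palindrome TGACGTCA, which contains the core, was present in 4 of the 13 (30.8%) and in 281 of the 10111 (2.78%). The AP-1 letters TGANTCA were in none of the 13 and in 500 of the 10111 (4.95%). Letters other than those of CREB were also more frequent in the 13 than in all promoters tested: the EGR letters GCGNGGGCG occurred in 5 (38.5%) against 760 (7.52%), and a CArG box, the site of SRF, in 1 (7.69%) against 111 (1.1%). A match describes letters only and is not a measured site. The windows printed 5′ to 3′ on the gene's strand, with TGACG or its reverse complement in capitals, are those of the lower member with the most matches (Nr4a1), of Egr4 with 2, of Ier2 and Maff with the full palindrome, and of Npas4 and Bdnf, the large falls whose windows held none of these letters.
Nr4a1 (chr7:134259888-134260137, plus strand, GRCr8): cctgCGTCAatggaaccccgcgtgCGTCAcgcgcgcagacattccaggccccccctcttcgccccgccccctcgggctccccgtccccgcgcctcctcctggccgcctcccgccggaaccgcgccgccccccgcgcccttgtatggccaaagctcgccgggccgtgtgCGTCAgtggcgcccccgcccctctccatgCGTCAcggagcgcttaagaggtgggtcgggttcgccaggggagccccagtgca
Egr4 (chr4:119607818-119608067, minus strand, GRCr8): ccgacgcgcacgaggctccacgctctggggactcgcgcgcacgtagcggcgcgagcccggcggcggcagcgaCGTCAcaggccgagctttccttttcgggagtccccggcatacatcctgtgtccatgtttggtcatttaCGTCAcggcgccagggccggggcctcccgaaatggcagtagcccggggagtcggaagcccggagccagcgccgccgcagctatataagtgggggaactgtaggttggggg
Ier2 (chr19:40399123-40399372, plus strand, GRCr8): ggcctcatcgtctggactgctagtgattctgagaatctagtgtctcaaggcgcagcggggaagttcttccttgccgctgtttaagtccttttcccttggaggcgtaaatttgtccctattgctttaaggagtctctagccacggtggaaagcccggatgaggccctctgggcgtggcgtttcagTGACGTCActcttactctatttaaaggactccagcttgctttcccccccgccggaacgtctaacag
Maff (chr7:112792537-112792786, plus strand, GRCr8): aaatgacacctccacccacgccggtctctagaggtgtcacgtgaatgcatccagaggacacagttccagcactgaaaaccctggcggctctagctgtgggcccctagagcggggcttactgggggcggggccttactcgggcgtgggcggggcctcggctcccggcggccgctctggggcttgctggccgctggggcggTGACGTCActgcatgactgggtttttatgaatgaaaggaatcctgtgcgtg
Npas4 (chr1:211716103-211716352, minus strand, GRCr8): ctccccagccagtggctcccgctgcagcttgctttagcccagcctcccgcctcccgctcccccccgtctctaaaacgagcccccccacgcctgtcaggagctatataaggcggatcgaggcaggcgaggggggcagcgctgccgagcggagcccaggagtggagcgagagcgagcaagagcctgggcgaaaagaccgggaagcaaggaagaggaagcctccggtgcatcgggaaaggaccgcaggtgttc
Bdnf (chr3:116619383-116619632, plus strand, GRCr8): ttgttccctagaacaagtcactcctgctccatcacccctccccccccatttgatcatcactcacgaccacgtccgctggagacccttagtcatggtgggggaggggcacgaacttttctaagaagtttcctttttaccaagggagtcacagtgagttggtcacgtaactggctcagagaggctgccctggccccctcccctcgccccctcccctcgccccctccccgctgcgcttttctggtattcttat

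Synaptic and secreted products of active neurons form the other list of activity-regulated genes. Of 40 measured, 26 were lower (65.0%, against 9.48% of all genes tested), none was higher and 14 did not pass, with a median of -0.93. At 9 h, 21 were lower and 1 higher, and 17 were lower at both times. In the average, 24 were lower. Without all arrays numbered 3, 15 were lower. For 40 of the 41 lower members counted over both activity lists the blocked arrays lay below the untreated ones, the exception being Penk. The same held for 2000 of all 2013 genes lower at 26 h.

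Arc, a cytoskeletal protein that promotes AMPA receptor endocytosis, was at 1.49, 2.0 and 1.55 in untreated and -1.89, -2.30 and -2.08 in blocked cultures. The 13.6-fold fall (-3.77 ± 0.41, adjusted p = 0.00074) separated the groups by more than 3 log2 units, and the 9 h change was -1.83. Bdnf, the neurotrophin that activity releases at synapses, was at 0.39, 0.78 and 0.26 and at -2.76, -3.02 and -3.02, a 10.6-fold fall (-3.41 ± 0.15, adjusted p = 8.2e-06) against -1.78 at 9 h. The fall of Bdnf was larger at 26 h than at 9 h (difference -1.63, adjusted p = 0.00058), a difference of which scan day cannot be told apart. Comparisons within a scan day gave -2.44 on the first and -2.75 on the second day, though each sets a blocked culture of one time against an untreated culture of the other.

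Rgs4, a regulator that shortens G protein signals, went from 3.19, 3.41 and 3.13 to 0.70, 0.24 and 0.63 (-2.72 ± 0.15, adjusted p = 1.4e-05), and changed by -1.48 at 9 h. Inhba, which encodes the activin A subunit, went from -0.77, -0.77 and -1.56 to -3.91, -3.98 and -3.58 (-2.79 ± 0.29, adjusted p = 0.00056) and by -2.10 at 9 h. Serpinb2, a plasminogen activator inhibitor induced by synaptic activity, went from -1.78, -1.15 and -2.01 to -4.66, -4.19 and -3.89 (-2.60 ± 0.33, adjusted p = 0.0016) and by -1.75 at 9 h. None of these groups overlapped. Nptx2, a secreted pentraxin that clusters AMPA receptors, was at 0.43, 1.24 and 1.05 and at -1.04, -0.57 and -0.36 (-1.56 ± 0.25, adjusted p = 0.0039), with a 9 h change of -0.70 that did not pass. Pcdh8, a protocadherin that internalises with cadherins after activity, changed by -1.68 (adjusted p = 0.0014) and by -0.96 at 9 h (adjusted p = 0.010). The other lower members ranged from Ptgs2 at -2.34 to Rheb at -0.32. Homer1, a postsynaptic scaffold named after its values were seen, changed by -0.10 at 26 h and did not pass, and was lower at 9 h (-0.53).

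**Figure D2:**
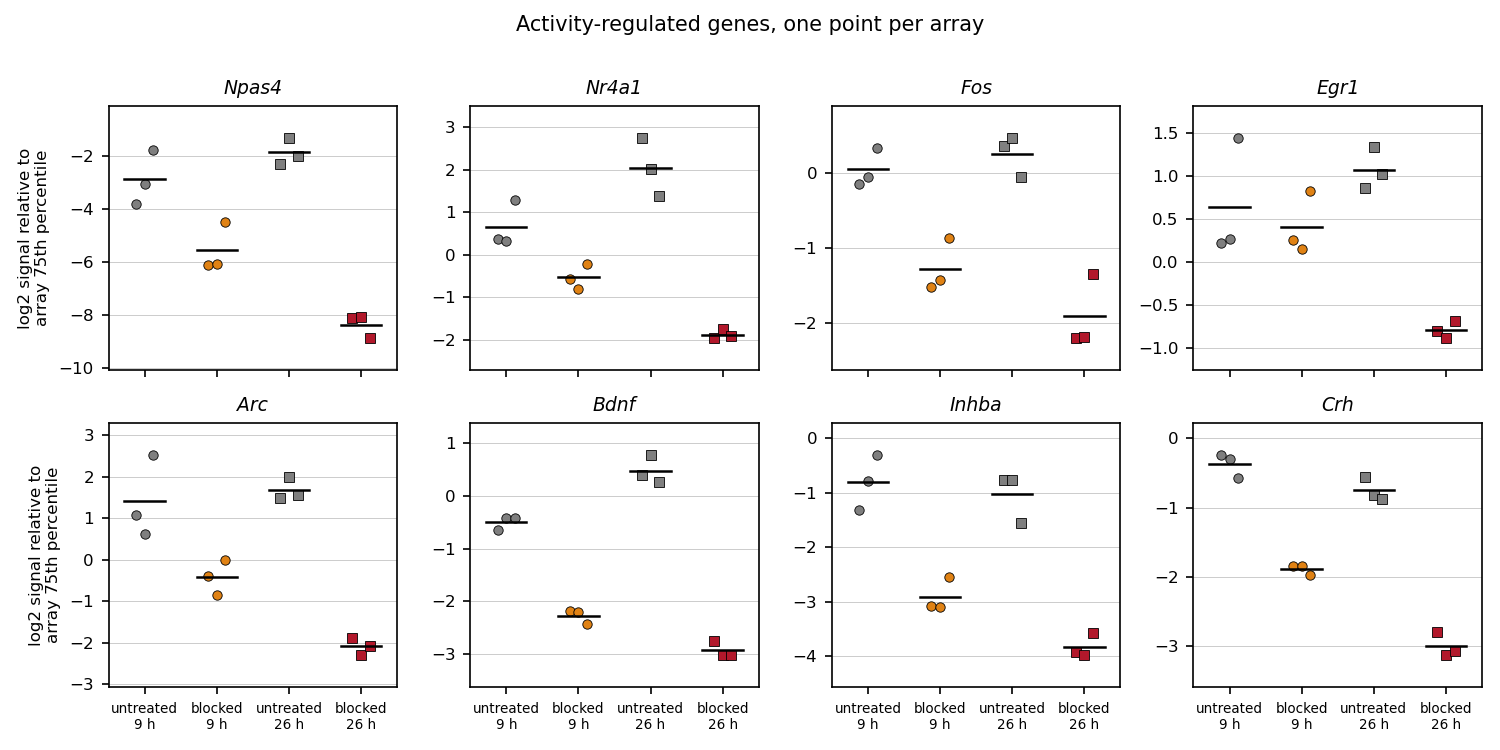
Levels of 8 activity-regulated genes (y axis, log2 signal relative to the 75th percentile of the array) in the 4 groups on the x axis, with a point for each of 3 arrays and a bar at the group mean. In every panel the 3 blocked 26 h arrays lie below the 3 untreated 26 h arrays, and only for Egr1 do the 9 h groups overlap.

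The list of MAP kinase and calcineurin feedback genes, which holds negative regulators and also targets of these pathways, followed in part. Of 20 measured, 7 were lower (35%, against 9.48% of all genes tested), 1 was higher (5%, against 6.88%) and 12 did not pass. The lower ones numbered 4 without untreated replicate 2, blocked replicate 1 or blocked replicate 3, and 3 without the arrays numbered 3. Dusp1, a phosphatase of MAP kinases, was at -2.98, -2.88 and -3.54 in untreated and -5.57, -5.32 and -5.35 in blocked cultures (-2.28 ± 0.24, adjusted p = 0.00056), with a 9 h change of -0.55 that did not pass. Dusp10, a phosphatase of stress kinases, changed by -0.96 at 26 h (adjusted p = 0.0035) but by 0.89 at 9 h (adjusted p = 0.0033), and by -0.28 at 26 h with normexp correction. The calcineurin target Nfatc3 was higher by 0.43 at 26 h (adjusted p = 0.032) and lower by -0.58 at 9 h, and its other probe changed by 0.07 at 26 h. Its call was lost on leaving out any 1 of the 26 h arrays.

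Among 37 neurotrophins, growth factors and their receptors, 6 were lower (16.2%) and 1 higher (2.70%), against 9.48% and 6.88% of all genes tested. With the replicate number as a block they numbered 11 and 3. The lower ones numbered 3 without untreated replicate 2, blocked replicate 1 or blocked replicate 2, and 1 without the arrays numbered 3. Gfra1 and Gfra2, coreceptors for GDNF family ligands, went opposite ways at 26 h. Gfra1 changed from -1.86, -1.34 and -1.33 to -2.50, -2.49 and -2.21 (-0.89 ± 0.17, adjusted p = 0.0075), and Gfra2 from -2.89, -3.0 and -3.08 to -2.05, -2.01 and -2.07 (0.95 ± 0.12, adjusted p = 0.0013). Gfra2 was also higher at 9 h (1.1, adjusted p = 0.00057), but its 26 h change was 0.39 with quantile normalization and 0.35 with normexp correction, neither past the test, and the call was also lost with the mean of its probes. In the list of TGF-beta, activin and BMP signalling, 5 of 43 were lower (11.6%) and 3 higher (6.98%), near the 9.48% and 6.88% of all genes tested, and with the block 13 and 5. Leaving out blocked replicate 2 gave 3 lower, and leaving out the arrays numbered 3 gave 3 lower and none higher. Beside Inhba, the follistatin relative Fstl4 changed by -0.89 (adjusted p = 0.0032) and by -0.07 at 9 h. Tgfb3, a ligand, was higher at 26 h (0.61, adjusted p = 0.0066) and more so at 9 h (1.64). The activin receptor Acvr2b was higher at 26 h (0.61, adjusted p = 0.0012) and lower at 9 h (-0.36).

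Neuropeptides and their processing enzymes were mostly lower where they passed. Of 48 measured, 15 were lower (31.25%, against 9.48% of all genes tested), 3 higher (6.25%, against 6.88%) and 30 did not pass. The median was -0.40. With the block, 8 were higher. At 9 h, 9 were lower and 3 higher, with 8 lower at both times, and 13 were lower in the average. The lower ones numbered 9 without blocked replicate 2 and 5 without the arrays numbered 3. No member was higher without blocked replicate 2, untreated replicate 2 or the arrays numbered 3, and 1 was without untreated replicate 3 or blocked replicate 1. Adcyap1, the precursor of PACAP, was at -0.82, -1.10 and -1.57 in untreated and -3.55, -3.60 and -3.65 in blocked cultures (-2.43 ± 0.19, adjusted p = 0.00013), against -1.46 at 9 h. Crh, corticotropin-releasing hormone, was at -0.56, -0.81 and -0.88 and at -2.80, -3.13 and -3.07 (-2.24 ± 0.13, adjusted p = 2.1e-05), against -1.51 at 9 h. Neither gene had overlapping groups. Named after their values were seen, the precursors Pdyn, Tac1 and Penk and the prohormone convertase Pcsk1 were also lower at both times, by -2.16, -1.71, -1.58 and -1.92 at 26 h; for Penk the arrays overlapped. Oprl1, the nociceptin receptor, was higher at both times, by 0.94 at 26 h and 0.96 at 9 h, and Scg5, a chaperone of a prohormone convertase, was higher at 26 h (0.73, adjusted p = 0.022) with a 9 h change of -0.25. Both calls were lost without untreated replicate 2 or blocked replicate 2, and that of Scg5 also without untreated replicate 3 or blocked replicate 1. With normexp correction Oprl1 changed by 0.48.

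Of the 12 largest falls, 7 were lower at 9 h too, 4 were higher at 9 h and 1 had not changed past the test. Besides Npas4, Nr4a1, Arc, Bdnf and Nfil3, the genes lower at both times were Cyp26b1 and Perm1. Cyp26b1, which degrades retinoic acid, was at -0.88, -1.16 and -1.38 in untreated and -4.91, -4.85 and -3.66 in blocked cultures, a 10.1-fold fall (-3.33 ± 0.31, adjusted p = 0.00032), and changed by -1.03 at 9 h. It and Rara, a retinoic acid receptor (-1.22 ± 0.13, adjusted p = 0.00058, 0.33 at 9 h), were the 2 members lower of 18 in the retinoid list. That share of 11.1% was near the 9.48% of all genes tested, and no member was higher. Perm1, a regulator of muscle metabolism, went from -3.02, -2.72 and -3.14 to -5.19, -6.53 and -6.70 (-3.18 ± 0.35, adjusted p = 0.00080) and changed by -1.98 at 9 h.

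Nmbr, the neuromedin B receptor, was the member of the 12 with no call at 9 h, where it changed by -0.23. At 26 h it was at -4.56, -5.03 and -5.54 in untreated and at -8.28, -9.08 and -8.90 in blocked cultures, where no array had it well above background. The fall was at least 6.47-fold (fitted -3.71 ± 0.33, adjusted p = 0.00025). The fitted difference from 9 h was -3.48 (adjusted p = 0.00070), which has no exact size because of those blocked arrays. With normexp correction the 26 h change was -1.11.

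The remaining 4 of the 12 changed in opposite directions at the 2 times. Klf12, a Krüppel-like transcription factor, was at -1.70, -1.39 and -0.47 in untreated and -5.49, -5.07 and -4.88 in blocked 26 h cultures (-3.96 ± 0.44, adjusted p = 0.00082). At 9 h it was at -5.97, -4.99 and -4.74 in untreated and -1.90, -1.46 and -0.47 in blocked cultures (3.96, adjusted p = 0.00070). The high arrays were thus those of the second scan day and the low ones those of the first. Within a day the difference was 0.09 and -0.09, the average effect -0.00, and a second Klf12 probe changed by -1.45 at 26 h. 1700001K19Rikl, named only by its clone, changed by -4.51 at 26 h (adjusted p = 0.00011) and by 4.05 at 9 h, and by -0.27 and -0.19 within the days. The homeobox gene Alx4 changed by -3.81 (adjusted p = 0.014) and 3.25, and Aadacl4fm1, of the arylacetamide deacetylase family, by fitted values of -3.13 (adjusted p = 0.020) and 2.87. Aadacl4fm1 was not well above background in blocked 26 h and untreated 9 h cultures, so that it fell at least 3.70-fold at 26 h and rose at least 3.35-fold at 9 h. With normexp correction Alx4 changed by -1.98, and Aadacl4fm1 by -0.83, which did not pass. The call of Alx4 was lost without untreated replicate 2, untreated replicate 3 or blocked replicate 1, and that of Aadacl4fm1 also without blocked replicate 2.

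Among rises, the 4 genes with the largest positive difference from 9 h, among those whose difference passed the test, were Fzd6, Ckm, Rsad2 and Pkd2l2. Fzd6, a Frizzled receptor for Wnt ligands, was at -6.46, -5.81 and -6.24 in untreated and -4.31, -3.79 and -3.96 in blocked 26 h cultures (2.15 ± 0.22, adjusted p = 0.00054). It changed by -1.98 at 9 h, by -0.09 and 0.26 within the scan days, and by 0.35 in its other probe at 26 h; normexp correction and the mean of its probes each gave 1.25. Ckm, muscle creatine kinase, changed by 1.75 (adjusted p = 0.039) with overlapping arrays and by -1.63 at 9 h. Rsad2, an interferon-induced antiviral gene, changed by 1.61 (adjusted p = 0.049) and by -1.43 at 9 h, which did not pass. The calls of Ckm and Rsad2 were each lost on leaving out untreated 26 h replicate 1 or 2, blocked 26 h replicate 1 or 2, untreated 9 h replicate 2 or blocked 9 h replicate 2 or 3. That of Ckm was also lost without blocked 9 h replicate 1, and that of Rsad2 without untreated or blocked 26 h replicate 3. Without the arrays numbered 3 Ckm changed by 2.77, and with normexp correction by 1.06, which did not pass.

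**Figure D3:**
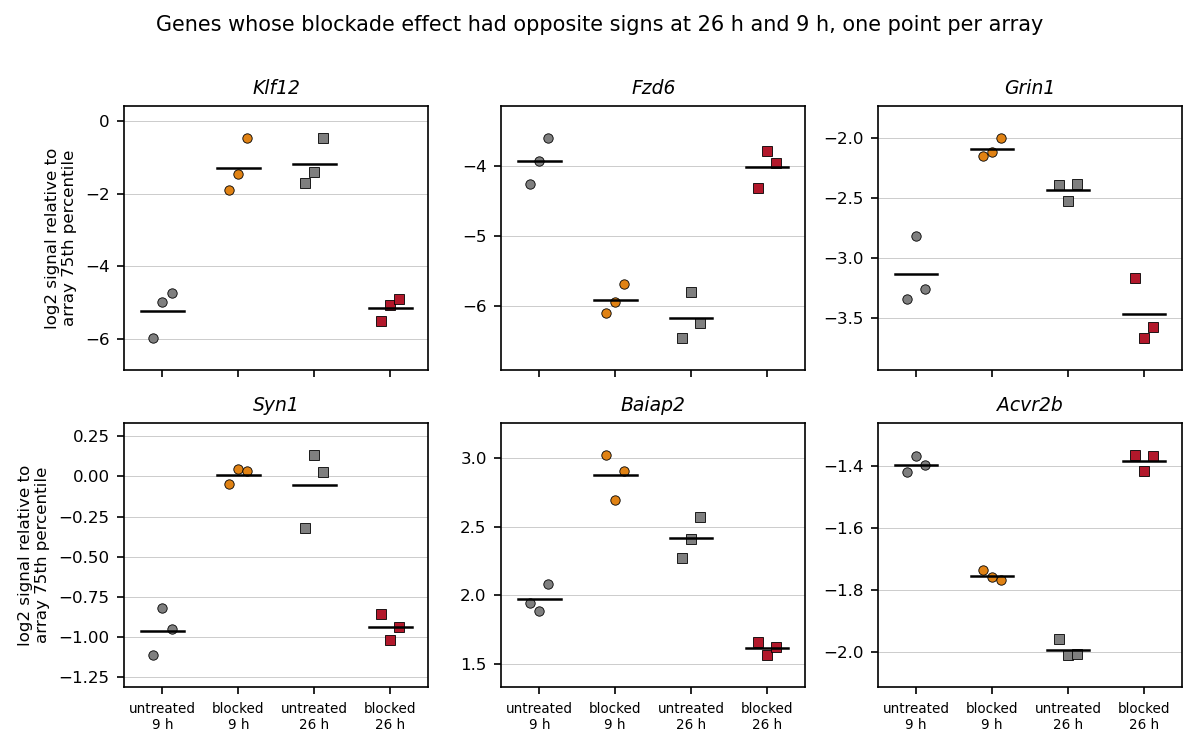
Levels of 6 genes with opposite signs of the blockade effect at the 2 times (y axis, log2 signal relative to the 75th percentile of the array), with a point per array and a bar at the mean of each group on the x axis. The untreated 26 h and blocked 9 h arrays, scanned on the second day, lie on one side in each panel and the untreated 9 h and blocked 26 h arrays, scanned on the first day, on the other.

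Of the 12 largest rises, 3 were higher at 9 h, 1 (Fzd6) was lower and 8 had no call there. Gpr139, an orphan G protein-coupled receptor of the brain, was at -7.48, -7.70 and -7.98 in untreated and -4.69, -4.62 and -4.89 in blocked cultures, a 7.92-fold rise (2.98 ± 0.25, adjusted p = 0.00016), and rose by at least 3.79-fold at 9 h (fitted 2.48, adjusted p = 0.00047), where it was not well above background in untreated cultures. With normexp correction the 26 h change of this dim gene was 1.32. Il34, a ligand of the microglial receptor CSF1R made by neurons, was at -0.03, -0.47 and -0.00 and at 1.8, 1.65 and 1.64, a 3.64-fold rise (1.86 ± 0.17, adjusted p = 0.00029), against 0.60 at 9 h (adjusted p = 0.031). Hrk, a BH3-only protein that promotes cell death, was at -1.33, -1.44 and -1.32 and at 0.40, 0.51 and 0.57, a 3.62-fold rise (1.85 ± 0.11, adjusted p = 2.4e-05), and rose by 1.15 at 9 h. Its other probe changed by 0.53 at 26 h, and the mean of its probes by 1.19. Groups did not overlap for any of these 3 genes.

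The other rises had 9 h changes that did not pass. Thrsp, a regulator of lipogenesis, went from -2.27, -3.21 and -2.71 to -1.77, -0.48 and -0.49 (1.82 ± 0.33, adjusted p = 0.0067), with 0.04 at 9 h. The ion channel genes Calhm5 and Pkd2l2 rose by 2.29 (adjusted p = 0.0011) and by at least 3.44-fold (fitted 2.58, adjusted p = 0.0012). Pkd2l2 was not well above background on any untreated 26 h array. Calhm5 was well above background on only 1 of the 3, so its size is not exact. At 9 h Calhm5 and Pkd2l2 changed by -0.16 and -0.24. Ces1d, a carboxylesterase, rose by 1.86 (adjusted p = 0.0044) and Rasal3, a Ras GTPase-activating protein, by 1.81 (adjusted p = 0.0057), with 0.10 and 0.20 at 9 h. Spem2, a spermatid gene, rose by 1.88 (adjusted p = 0.0042) with 0.88 at 9 h. Mgat4d had the largest fitted rise (3.28 ± 0.92, adjusted p = 0.037), but blocked levels of -4.14, -7.50 and -3.80 were far apart and untreated ones were -7.80, -7.84 and -9.65. It was well above background on 2 of the 3 untreated 26 h arrays and on no 9 h array. Mgat4d thus entered the test only through the blocked 26 h group, where it was high. Its call was lost without untreated replicate 2 or 3, blocked replicate 1 or 3 or any blocked 9 h replicate. The call was also lost with no filter on dim probes, with the 26 h arrays alone and with array weights. Without the arrays numbered 3 its change was 2.0 and did not pass. With normexp correction the changes were 0.63 for Pkd2l2, 0.71 for Calhm5, 0.90 for Ces1d, 0.97 for Spem2 and 1.41 for Mgat4d, and 0.73 for Rasal3, which did not pass. Rasal3 also lost its call without the arrays numbered 3.

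Of the 11 genes of the blocked receptors, 2 were lower at 26 h and 9 did not pass. GluN1, the obligatory NMDA receptor subunit, is encoded by Grin1, which was at -2.40, -2.53 and -2.39 in untreated and -3.16, -3.67 and -3.57 in blocked cultures (-1.03 ± 0.16, adjusted p = 0.0038). All 3 blocked arrays were below all untreated ones, but at 9 h Grin1 was higher by 1.05 (adjusted p = 0.0023), and the average was 0.01. The 26 h call was lost without the arrays numbered 3. Grin2c, a GluN2 subunit, changed by -0.58 ± 0.17 (adjusted p = 0.040), a call lost without any untreated 26 h replicate, blocked 26 h replicate 1 or 3, any blocked 9 h replicate or untreated 9 h replicate 2, and by -0.38 without blocked replicate 1. The 4 AMPA receptor subunit genes did not pass. Gria1 was at -2.0, -2.02 and -1.57 and at -1.34, -1.41 and -1.24 (0.53 ± 0.19, adjusted p = 0.079, 0.020 with the replicate number as a block), without overlap, and was higher at 9 h (0.73, adjusted p = 0.021). Gria2 was at 1.22, 1.17 and 1.11 and at 1.06, 0.99 and 0.86 (-0.19 ± 0.11, adjusted p = 0.24), and was higher at 9 h (0.59, adjusted p = 0.0045). Gria3 changed by 0.30 ± 0.12 (adjusted p = 0.13, 0.027 with the block) and Gria4 by 0.50 ± 0.21 (adjusted p = 0.12, 0.018 with the block), with overlapping arrays for Gria4. The means of the probes of Gria3 and Gria4 changed by 0.06 and 0.19. The other NMDA receptor genes did not pass: Grin2a changed by -0.13 ± 0.13, Grin2b by -0.00 ± 0.18, Grin2d by -0.09 ± 0.11, Grin3a by -0.31 ± 0.27 and Grin3b by 0.62 ± 0.22. At 9 h Grin2a was higher (0.73, adjusted p = 0.0036).

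**Figure D4:**
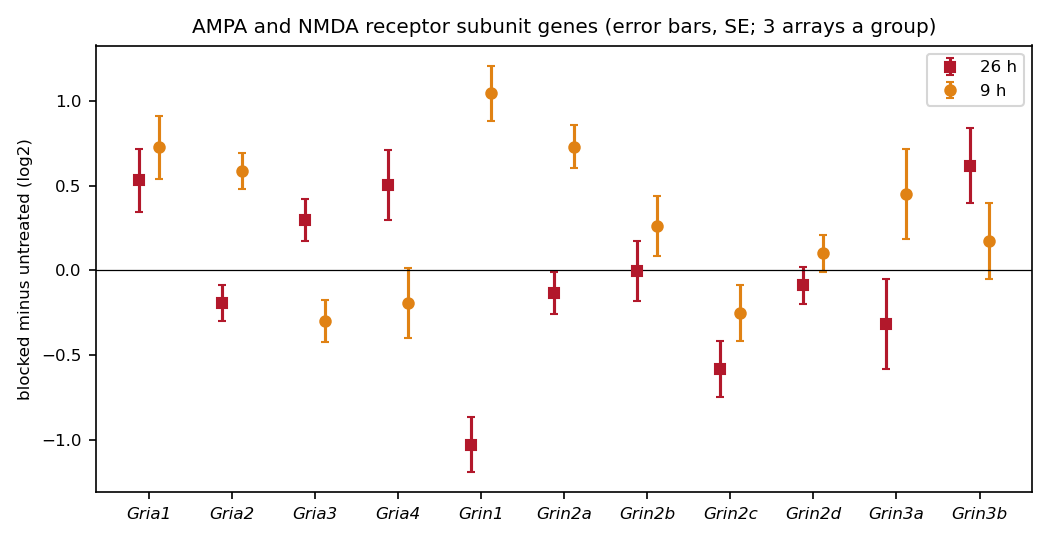
Blocked minus untreated difference (y axis, log2) for the 11 AMPA and NMDA receptor subunit genes on the x axis, with squares for 26 h, circles for 9 h and bars for the SE of the fit over 3 arrays a group. Grin1 lies at -1.03 at 26 h and 1.05 at 9 h, and Gria1 above 0 at both times.

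In the wider list of AMPA receptor subunits and auxiliary proteins, 3 of 27 were lower (11.1%) and 1 higher (3.70%), near the 9.48% and 6.88% of all genes tested, with a median of -0.07, while 9 were higher and 1 lower at 9 h. With the block 5 were lower and 4 higher. Only 1 was lower without untreated replicate 2 or blocked replicate 2, and none was lower or higher without the arrays numbered 3. Higher members numbered 2 without untreated 9 h replicate 1 and 3 without untreated 26 h replicate 1. Besides Nptx2, the cornichon Cnih2, which aids AMPA receptor export, was lower by -0.40 (adjusted p = 0.018) and higher by 0.78 at 9 h; its 26 h call was lost without untreated replicate 2 or 3 or blocked replicate 2 or 3. Lrrtm2, a postsynaptic adhesion protein, was higher by 0.81 (adjusted p = 0.0077) with 0.42 at 9 h, but its other probe changed by -0.07 and the mean of its probes by 0.37, which did not pass. Among 23 NMDA, kainate, delta and metabotropic receptor genes, 3 were lower (against 9.48% of all genes tested) and 2 higher (against 6.88%). Without the arrays numbered 3, none of the 23 was lower or higher. Grid1, a delta receptor, was higher by 0.53 (adjusted p = 0.0074) and lower by -0.63 at 9 h, with 0.34 and no call under normexp correction.

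Of 32 measured genes of the postsynaptic density, 10 were lower (31.25%, against 9.48% of all genes tested) and none higher. At 9 h, 5 of the 10 were higher, and of all members 9 were higher and 1 lower. In the average 1 was lower and 1 higher. Lower members numbered 5 without untreated replicate 2 or blocked replicate 2, 6 without untreated replicate 3, blocked replicate 1 or blocked replicate 3, and 1 without the arrays numbered 3. Dlgap3, a scaffold that links PSD-95 to Shank, was at -1.04, -0.91 and -0.63 and at -2.16, -2.25 and -2.0 (-1.28 ± 0.16, adjusted p = 0.0014), with 0.43 at 9 h, not past the test. Baiap2, an organiser of spine actin, was at 2.27, 2.41 and 2.57 and at 1.66, 1.57 and 1.63 (-0.80 ± 0.11, adjusted p = 0.0026), and was higher by 0.90 at 9 h (adjusted p = 0.0011).

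Of 55 presynaptic vesicle and release genes, 10 were lower (18.2%, against 9.48% of all genes tested) and 4 higher (7.27%, against 6.88%). At 9 h, 18 were higher and 1 lower, against 11.4% and 9.64% of all genes tested at that time. With the block 18 were lower and 7 higher at 26 h. The number lower was 3 without untreated replicate 2, and 4 without blocked replicate 2 or blocked replicate 3. Without all arrays numbered 3, 1 was lower and 1 higher. Syn1, which tethers synaptic vesicles, was at -0.32, 0.13 and 0.03 and at -0.85, -1.02 and -0.94 (-0.88 ± 0.13, adjusted p = 0.0027), and was higher by 0.97 at 9 h. Syt10, a calcium sensor of secretory vesicles, was at -4.80, -5.31 and -5.52 and at -6.28, -7.05 and -7.03 (-1.58 ± 0.23, adjusted p = 0.0029), with -0.33 at 9 h and -0.69 under normexp correction. Doc2b, a sensor for spontaneous release, was higher by 0.88 (adjusted p = 0.0067) with 0.43 at 9 h and 0.57 under normexp correction. The active zone protein Erc2 was higher by 0.80 (adjusted p = 0.0067), but its other probe changed by -0.37 and the mean of its probes by 0.21, which did not pass.

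Ion channels passed the test in both directions. Of 70 potassium, HCN and TRP channel genes, 13 were lower (18.6%, against 9.48% of all genes tested) and 2 higher (2.86%, against 6.88%). At 9 h, 4 were lower and 16 higher, against 9.64% and 11.4% of all genes tested at that time. With the block 10 were higher at 26 h. Without untreated replicate 1, 5 were higher, and without the arrays numbered 3, 4 were lower and 1 higher. Trpc6, a diacylglycerol-gated cation channel, was at -1.95, -1.54 and -1.79 in untreated and -4.02, -4.35 and -4.45 in blocked cultures (-2.51 ± 0.16, adjusted p = 2.4e-05), and changed by -1.84 at 9 h. Kcna1, a subunit of axonal potassium channels, was at 2.98, 3.21 and 3.0 and at 1.82, 1.75 and 1.62 (-1.33 ± 0.11, adjusted p = 0.00014), with -0.21 at 9 h. Its relative Kcna2 ran the other way, from -2.63, -3.15 and -2.62 to -1.77, -1.86 and -1.80 (0.99 ± 0.18, adjusted p = 0.0065), with -0.11 at 9 h. Kcnmb4, the neuronal auxiliary subunit of BK channels, rose by 1.09 (adjusted p = 0.0014) with -0.22 at 9 h. Arrays did not overlap for any of the 4 channel genes.

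Among 26 voltage-gated sodium and calcium channel genes, 6 were lower (23.1%, against 9.48% of all genes tested) and 2 higher (7.69%, against 6.88%). At 9 h, 8 were higher and none lower (by limma, 3 of the 6 were higher there). The block gave 8 lower and 6 higher at 26 h. Leaving out untreated replicate 2 or blocked replicate 1 gave 3 lower, and leaving out the arrays numbered 3 gave 1. A single gene was higher without untreated replicate 3, blocked replicate 1 or 2 or the arrays numbered 3. Cacna2d1, the auxiliary subunit that gabapentin binds, was at 1.52, 1.44 and 1.31 and at 0.56, 0.27 and 0.30 (-1.05 ± 0.11, adjusted p = 0.00050), with 0.31 at 9 h, not past the test. Cacna1i, a T-type channel, was lower by -0.84 (adjusted p = 0.0035) and higher by 0.92 at 9 h. Cacna1b, the N-type channel, was higher by 0.80 (adjusted p = 0.011) with -0.12 in its other probe and a mean of its probes of 0.34 that did not pass, and the sodium channel Scn3a was higher by 0.43 (adjusted p = 0.034), a call lost without untreated replicate 1 or 3 or blocked replicate 1 or 2.

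Of 65 genes of calcium, calmodulin and cAMP signalling, 13 were lower (20%, against 9.48% of all genes tested) and 5 higher (7.69%, against 6.88%). At 9 h, 3 were lower and 20 higher, against 9.64% and 11.4% of all genes tested at that time. With the block 9 were higher at 26 h. Those lower numbered 6 without untreated replicate 2, 7 without blocked replicate 2 and 8 without blocked replicate 1. The higher ones numbered 8 without untreated replicate 1, 1 without untreated replicate 2, 2 without untreated replicate 3 or blocked replicate 1, and 3 without blocked replicate 2. With the arrays numbered 3 left out, 2 were lower and none higher. Atp2a2, the calcium pump of the endoplasmic reticulum, was at 3.28, 3.18 and 3.21 and at 2.38, 2.32 and 2.49 (-0.83 ± 0.11, adjusted p = 0.0016), with 0.13 at 9 h and -0.12 in its other probe at 26 h, for a mean of its probes of -0.48. Camk1g, a calmodulin kinase, was lower by -1.09 (adjusted p = 0.0044) with -0.04 at 9 h. Pde1a, a calmodulin-dependent phosphodiesterase, was at -1.77, -2.31 and -2.29 and at -0.64, -1.02 and -0.99 (1.24 ± 0.17, adjusted p = 0.0019), with 0.06 at 9 h. Camkk1, a kinase upstream of CaMKI, was higher at both times, by 0.73 (adjusted p = 0.011) and 0.70, a call lost without untreated replicate 2.

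At inhibitory synapses, 4 of 28 genes were lower (14.3%, against 9.48% of all genes tested) and none higher. With the block 10 were lower and 3 higher, beside 3909 lower and 2830 higher of all 21243 tested. The count lower was 1 without untreated replicate 2, blocked replicate 1 or blocked replicate 3 and 2 without blocked replicate 2. Without untreated replicate 1, 3 were higher. Gabrd, the delta subunit of extrasynaptic GABA-A receptors, was at -1.50, -2.01 and -1.52 and at -3.45, -3.42 and -2.86 (-1.57 ± 0.18, adjusted p = 0.0011), with -0.07 at 9 h. Among 26 interneuron markers, 3 were lower (11.5%) and 2 higher (7.69%), near the 9.48% and 6.88% of all genes tested. With the block 6 were higher and 5 lower. The lower ones numbered 5 without untreated 9 h replicate 1 and 1 without blocked replicate 2. Without untreated replicate 2, 1 was higher. Dlx1, a homeobox factor of interneurons, was at -1.44, -1.93 and -1.99 and at -0.10, 0.05 and -0.08, a 3.34-fold rise (1.74 ± 0.15, adjusted p = 0.00019), with 0.30 at 9 h. Within the scan days it differed by 0.98 and 1.06. Nos1, neuronal nitric oxide synthase, was higher at both times, by 0.82 (adjusted p = 0.010, lost without untreated replicate 2) and 1.58. The 26 h change of Nos1 was 0.39 with normexp correction and 1.32 with only probes above background on all arrays. Reln, a secreted guidance protein, was lower by -0.65 (adjusted p = 0.0030) and higher by 0.37 at 9 h, and the calcium buffer Calb1 was lower by -0.92 (adjusted p = 0.014) with -0.12 at 9 h, a call lost without untreated replicate 3 or blocked replicate 1 or 2.

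Among 22 markers of excitatory neurons, 4 were lower (18.2%, against 9.48% of all genes tested) and 3 higher (13.6%, against 6.88%). Each of 9 left-out arrays brought the lower ones to 2. These arrays were replicates 2 and 3 of both 9 h groups, untreated 26 h replicates 1 and 2, and the 3 blocked 26 h replicates. With the block 5 were higher, and without the arrays numbered 3, 1 was lower and none higher. The transcription factor Bhlhe22 was higher by 0.94 (adjusted p = 0.0052, 0.41 at 9 h). Fezf2 and Pou3f1, factors of projection neurons, were lower by -0.99 (adjusted p = 0.0029) and -0.73 (adjusted p = 0.0098), with 0.34 and 0.82 at 9 h. Of 21 pan-neuronal markers, 2 were lower (9.52%) and 1 higher (4.76%), against 9.48% and 6.88% of all genes tested. The surface glycoprotein Thy1 was lower by -0.38 (0.41 at 9 h) and the RNA-binding protein Elavl4 higher by 0.95 (-0.14 at 9 h). Both calls were lost without untreated replicate 2 and without blocked replicate 2, and that of Thy1 without any 1 of the 26 h arrays. The block gave 4 lower and 3 higher, and leaving out untreated 9 h replicate 1 gave 5 lower and 2 higher.

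Of 42 measured regulators of death and survival, 8 were lower (against 9.48% of all genes tested) and 6 higher (14.3%, against 6.88%), and 12 were higher with the block. Lower members numbered 5 without blocked 9 h replicate 2 or 3, and 4 without untreated 26 h replicate 2 or 3 or blocked 26 h replicate 1 or 2. Higher members numbered 2 without untreated replicate 2 and 3 without untreated replicate 3 or blocked replicate 1. Besides Hrk, the BH3-only gene Bbc3 (PUMA) was higher, from 0.47, -0.09 and -0.25 to 1.49, 1.11 and 0.83 (1.1 ± 0.23, adjusted p = 0.011), with 0.60 at 9 h, a call lost without untreated replicate 2. Inhba and Serpinb2, described above, also belong to this list. Without all arrays numbered 3, 4 were lower and 1 higher.

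Of 18 clock and PAR bZIP genes, 6 were lower (33.3%, against 9.48% of all genes tested) and 1 higher (5.56%, against 6.88%). The lower ones numbered 3 without untreated replicate 2 and 1 without the arrays numbered 3. The block, or leaving out untreated 9 h replicate 1, gave 2 higher. Tef, a PAR bZIP activator, was higher at both times, from 1.47, 1.45 and 1.5 to 2.29, 2.30 and 2.23 at 26 h (0.80 ± 0.09, adjusted p = 0.0011) and by 0.66 at 9 h. Per3, a period gene, was lower by -0.65 (adjusted p = 0.0052) and higher by 0.89 at 9 h, but its other probes changed by 0.09 to 0.20 at 26 h and the mean of its probes by -0.12, which did not pass.

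Among 80 genes of synaptic adhesion and axon guidance, 12 were lower (15.0%, against 9.48% of all genes tested) and 10 higher (12.5%, against 6.88%), and 5 of the 10 were higher at 9 h too. With the block 20 were lower. Lower members numbered 6 without untreated replicate 2 or blocked replicate 2 and 7 without blocked replicate 3. With the arrays numbered 3 left out, 2 were lower and 2 higher. Cntn2, an axonal contactin, went from -3.07, -3.15 and -3.07 to -2.04, -1.75 and -1.97 (1.18 ± 0.14, adjusted p = 0.0011) and rose by 1.78 at 9 h. Flrt3, a ligand of latrophilins, went from -0.34, -0.79 and -1.0 to 0.79, 0.89 and 0.45 (1.42 ± 0.20, adjusted p = 0.0026), with 0.31 at 9 h. The cadherin Cdh13 fell from 1.88, 1.8 and 1.91 to 1.04, 1.09 and 1.2 (-0.75 ± 0.08, adjusted p = 0.00080), with 0.21 at 9 h.

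In the extracellular matrix list, 11 of 47 were lower (23.4%, against 9.48% of all genes tested) and 1 higher (2.13%, against 6.88%). The median was -0.38, and 4 were lower at both times and 6 in the average. With the block 5 were higher. The number lower was 5 without untreated replicate 2, 6 without blocked replicate 1 or 2 and 7 without untreated replicate 3. Without all arrays numbered 3, 5 were lower. Mepe, a matrix phosphoglycoprotein known from bone, was at -1.54, -1.69 and -1.75 and at -4.25, -4.65 and -4.81 (-2.91 ± 0.17, adjusted p = 2.1e-05), and changed by -1.70 at 9 h. Within the scan days it differed by -2.06 and -2.55. The membrane metalloproteinase Mmp14 was higher by 0.67 (adjusted p = 0.041) with -0.59 at 9 h, a call lost on leaving out untreated 26 h replicate 1 or 2, any blocked 26 h replicate, untreated 9 h replicate 2 or blocked 9 h replicate 1 or 2.

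Of 40 genes induced by unfolded proteins or by the integrated stress response, 11 were lower (27.5%) and 1 higher (2.5%), with a median of -0.29. Over all genes tested the shares were 9.48% and 6.88%. With the block 19 members were lower. Those lower numbered 6 without untreated replicate 2 or blocked replicate 2 7 without blocked replicate 3, and 2 without the arrays numbered 3. Shmt2, a mitochondrial serine enzyme and ATF4 target, was at 0.38, 0.60 and 0.50 and at -0.40, -0.46 and -0.34 (-0.89 ± 0.09, adjusted p = 0.00062), with 0.27 at 9 h. The lipoprotein receptor Vldlr was lower by -0.94 (adjusted p = 0.0032) with 0.31 at 9 h. The sensor Atf6 was higher by 0.47 (adjusted p = 0.048) and lower by -0.62 at 9 h, and its call was lost without any 1 of the 26 h arrays, without any blocked 9 h replicate, and with the mean of its probes, which changed by 0.27. Of 21 cytosolic chaperones, 6 were lower (28.6%) and none higher, and none was lower without the arrays numbered 3. The block gave 1 higher and leaving out untreated replicate 1 gave 2. Hsph1, with a value missing on 1 array, changed by -0.72 (adjusted p = 0.0049, -0.06 at 9 h) and Hsp90ab1 by -0.55 (adjusted p = 0.0068, 0.64 at 9 h, and -0.04 in its other probe). The mean of the Hsp90ab1 probes changed by -0.29 and did not pass.

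In cholesterol synthesis and sterol control, 8 of 36 were higher at 9 h, against 11.4% of all genes tested at that time. At 26 h 3 were higher (8.33%, against 6.88% of all genes tested) and none lower, with a median of 0.30. The higher ones numbered 11 without untreated replicate 1 and 1 without untreated replicate 2, none without the arrays numbered 3, and 7 with the block. A single gene was lower without untreated 9 h replicate 1 or untreated 26 h replicate 1. Fdft1, squalene synthase, was higher by 0.76 (adjusted p = 0.0089) and lower by -0.51 at 9 h, and Tm7sf2, a sterol reductase, was higher by 1.02 (adjusted p = 0.010, lost without untreated replicate 2) with -0.39 at 9 h. In oxidative phosphorylation, 4 of 67 were lower (5.97%, against 9.48% of all genes tested) and 3 higher (4.48%, against 6.88%). With the block they numbered 7 and 5, and without the arrays numbered 3 none passed. Of the 67, 11 were saturated on all 26 h arrays, with differences of -0.53 to -0.43, and 8 more on all arrays of only 1 group. The part of saturated genes in the counts under each setting was not tested. The count lower was 19 without untreated 9 h replicate 1, 2 without untreated 26 h replicate 1, none without untreated replicate 2 or 3 or blocked replicate 1 or 2, and 1 without blocked replicate 3. The higher ones numbered 1 without untreated replicate 2 or 3 or blocked replicate 1 or 3. Sdhd, of complex II, was higher by 0.48 (adjusted p = 0.0094) and lower by -0.34 at 9 h. Of 35 glycolysis, lactate and hypoxia genes, 5 were saturated on all 26 h arrays. The number lower at 26 h was 5 (14.3%, against 9.48% of all genes tested). Among those lower were the kinase Pdk3 (-0.56, adjusted p = 0.011) and the carbonic anhydrase Car9 (-0.71, adjusted p = 0.021), with 0.13 and 0.50 at 9 h. That count was 11 without untreated 9 h replicate 1, 3 without blocked 9 h replicate 2 or 3 or untreated 26 h replicate 1, 2 without blocked 26 h replicate 2 or 3, and 1 without untreated 26 h replicate 2 or 3 or blocked replicate 1. It was 9 with the block and 0 without the arrays numbered 3. Leaving out untreated 26 h replicate 1 gave 1 higher. The call of Car9 was lost without untreated replicate 2 or 3 or blocked replicate 1 or 3, and its change was -0.46 with normexp correction. Of 31 antioxidant genes, 1 was higher: Txnip, the thioredoxin-binding protein that glucose induces, went from -1.44, -1.85 and -2.03 to 0.10, -0.46 and -0.59 (1.46 ± 0.37, adjusted p = 0.026), with 0.62 at 9 h, a call lost without untreated replicate 2 or 3 or blocked replicate 1 or 2. The block gave 3 higher and 4 lower, leaving out blocked replicate 1 gave 2 higher, and leaving out untreated 9 h replicate 1 or 2 gave 4 or 2 lower.

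Of 40 proteasome and ubiquitin genes, 4 were lower (10%, near the 9.48% of all genes tested) and none higher. Among the 4, the ubiquitin-activating enzyme Uba1 was lower by -0.58 and the proteasome subunit Psmb7 by -0.33. Both were higher at 9 h, by 0.52 and 0.40. Psmb7 lost its call without any 1 of the 26 h arrays but untreated replicate 1. The count of 4 rose to 8 without untreated 9 h replicate 1, and fell to 2 without blocked 9 h replicate 2 or untreated 26 h replicate 1 to 1 without any of the other 26 h arrays and to 0 without the arrays numbered 3; the block gave 7 lower and 3 higher. With quantile normalization Uba1 changed by -0.27 and did not pass. Of 71 ribosomal protein genes, 1 was higher (Rpl15, 0.50, adjusted p = 0.017, -0.36 at 9 h) and none lower, with a median of -0.45 at 26 h and 0.18 at 9 h. Of these, 40 were saturated on all 26 h arrays, so that their differences of -0.52 to -0.43 carry no order of levels. The call of Rpl15 was lost without untreated replicate 2 or blocked replicate 2 or 3. Leaving out untreated 9 h replicate 1 called 44 of the 71 lower, array weights called 47, and the block gave 2 higher and 1 lower. Among 17 reference genes, 1 was lower (Sdha, -0.33, adjusted p = 0.030, 0.40 at 9 h) and 6 were saturated likewise. Sdha lost its call without any 1 of the 26 h arrays; 8 reference genes were lower without untreated 9 h replicate 1, and 2 were lower and 1 higher with the block.

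None of 23 astrocyte genes and none of 30 proliferation genes passed the limma test at 26 h in either direction, with medians of -0.22 and -0.24. With the replicate number as a block, 6 and 13 of them were lower and 0 and 2 higher. Of all 21243 genes tested, 3909 were lower and 2830 higher with the block. At an unadjusted p under 0.05 in the main fit, the astrocyte and proliferation genes numbered 3 and 4. Without untreated 9 h replicate 1, 2 astrocyte genes were lower, and proliferation genes were lower in 1 without untreated 9 h replicate 3 and in 3 without untreated 26 h replicate 1. In the oligodendrocyte lineage, 2 of 21 were lower (9.52%, against 9.48% of all genes tested), and 9 with the block. The 2 were the factors Olig1 (-0.87, adjusted p = 0.021) and Sox10 (-0.98, adjusted p = 0.046), with 0.46 and -0.04 at 9 h. Both calls were lost without untreated 26 h replicate 2 or 3 or blocked 26 h replicate 1 or 2, and that of Sox10 also without blocked 26 h replicate 3, untreated 9 h replicate 2 or 3 or blocked 9 h replicate 1 or 3. Of 19 microglia and macrophage genes, 1 was lower, the Fc receptor chain Fcer1g (-1.41, adjusted p = 0.016, 1.03 at 9 h), a call lost without untreated replicate 2 or 3 or blocked replicate 1. With normexp correction it changed by -0.71; the block gave 3 lower and 1 higher, and leaving out untreated replicate 1 gave 2 lower. Of 26 meningeal, fibroblast and vascular genes, 2 were lower (7.69%) and 1 higher (3.85%, against 6.88% of all genes tested). Vitronectin Vtn changed by -0.70, decorin Dcn by -0.74 and the endothelial adhesion molecule Pecam1 by 1.04, with 0.42, -0.04 and -0.05 at 9 h. The calls of Vtn and Dcn were lost without untreated replicate 2 or blocked replicate 3, that of Vtn also without untreated replicate 3 or blocked replicate 1, that of Dcn without untreated replicate 1 or blocked replicate 2, and that of Pecam1 without blocked replicate 2. With normexp correction Vtn changed by -0.31 and Pecam1 by 0.45, neither past the test, and the block gave 7 lower and 2 higher.

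Interferon and inflammation genes were higher in 4 of 27 (14.8%, against 6.88% of all genes tested) and lower in 1 (against 9.48%). The median was 0.35 at 26 h and -0.24 at 9 h. With the block 11 were higher and 2 lower, beside 2830 higher and 3909 lower of all 21243 tested. With the arrays numbered 3 left out, 1 was higher. Without untreated replicate 1, 2 were lower. Irf1, an interferon-inducible transcription factor, was higher by 0.76 (adjusted p = 0.0068) with 0.07 at 9 h. Its call was lost with the mean of its probes and without the arrays numbered 3. The lipocalin Lcn2 was lower by -1.0 (adjusted p = 0.038, 0.24 at 9 h). The Lcn2 call was lost without untreated 26 h replicate 2 or 3, blocked 26 h replicate 1 or 2 or blocked 9 h replicate 3. Among 24 genes of microRNA and RNA processing, 3 were higher (12.5%, against 6.88% of all genes tested) and none lower. Among the 3 was the splicing factor Rbfox2 (0.56, adjusted p = 0.012, 0.33 at 9 h, lost without untreated replicate 2). That count fell to 0 without untreated replicate 2, to 1 without blocked replicate 2 and to 0 without the arrays numbered 3, and rose to 6 with the block, which gave 2 lower; 1 was lower without untreated replicate 1 or blocked replicate 3.

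**Figure D5:**
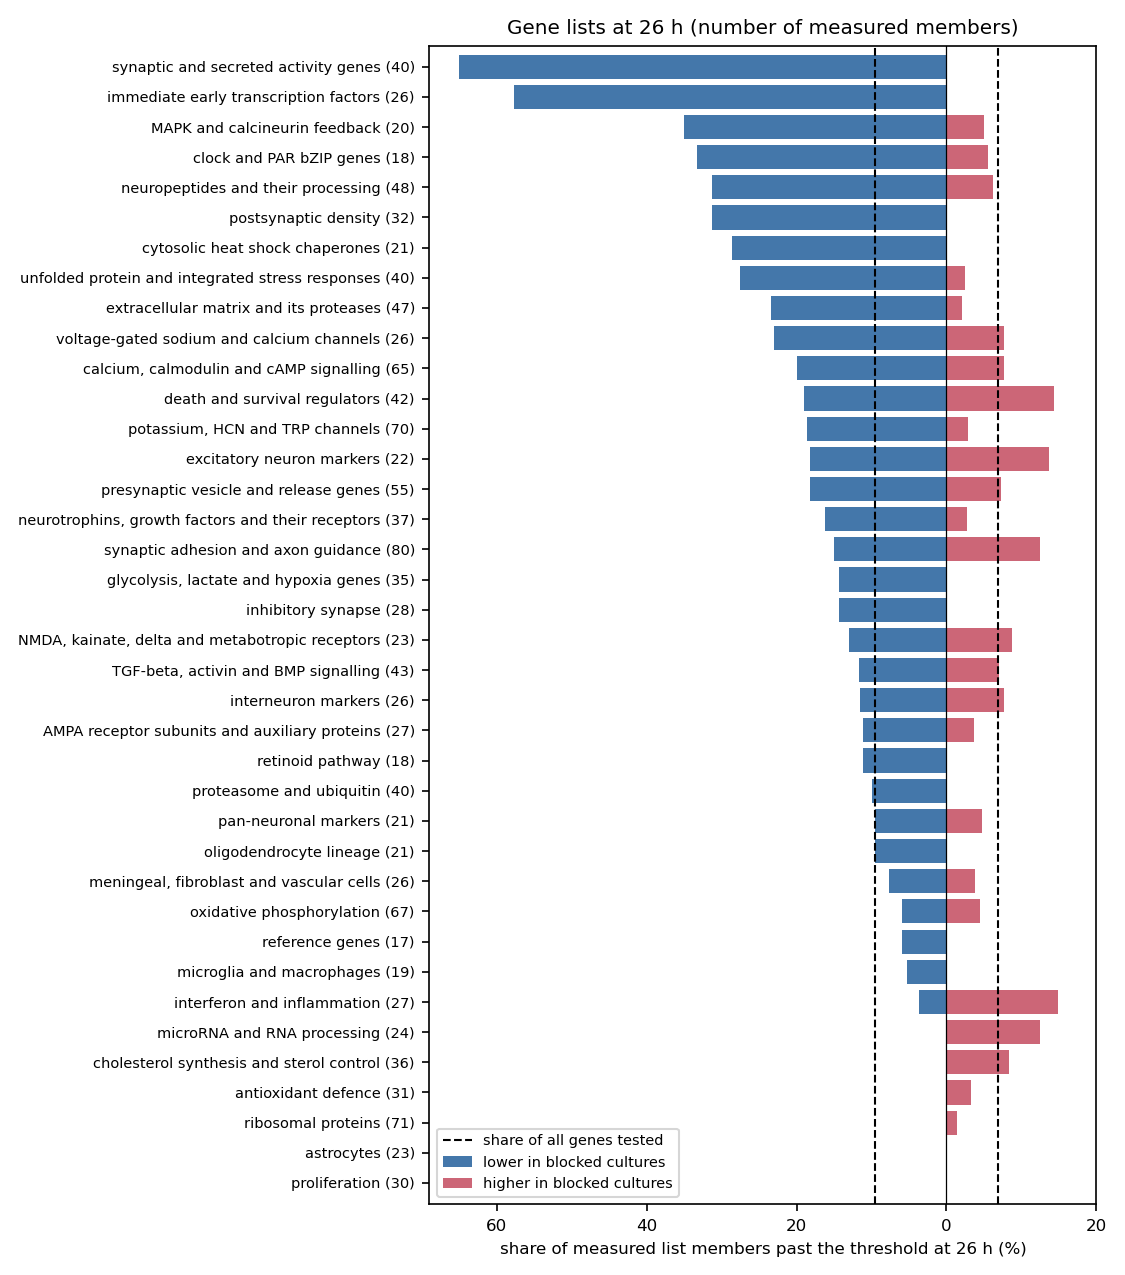
Share of measured members of each of 38 gene lists (y axis, with the number measured) that passed the test at 26 h, in percent on the x axis, lower in blocked cultures to the left and higher to the right; dashed lines mark the shares over all genes tested, 9.48% and 6.88%. The 2 activity-regulated lists reach 65.0% and 57.7% on the lower side.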

How the data were processed

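RNA of 12 rat hippocampal cultures was hybridised to single-colour Agilent arrays, 3 a group. The deposited scanner files give, per the file headers, the processed signal intensity of each spot from Feature Extraction 10.5.1.1, with background already corrected. The deposited log2 series table held the logarithm of these values plus a constant for each array of -0.72 to 0.03 (slopes of 1.0001 to 1.0002, column medians of 7.57 to 7.75); how the constant was set is not given in the sources used here. It served as an alternative. Levels were computed as log2 intensity minus the 75th percentile of non-control spots. Control spots and 3751 spot values marked as outliers were left out, and repeated spots were averaged by probe. Probes that lay well above background on every array of some group entered the tests (24027 of 30367), and the probe with the highest mean stood for its gene. Accessions were named through RefSeq (18004 probes matched, 12363 did not). The 21243 genes and unnamed targets were tested with limma 3.58.1 in R 4.3.3 on all 12 arrays as 4 group means, with contrasts at each time, their difference and their average, after the script was tested on simulated data; adjusted p is Benjamini-Hochberg at 0.05. The precision is limited by the number of arrays. Replicates were called independent cultures; same-numbered 26 h samples deviated together (correlations 0.179 to 0.657 over 3 pairs), so the replicate number was also fitted as a block. Genes named are the 12 largest rises and falls without overlap, up to 2 higher and 2 lower of each of 38 lists by adjusted p, the receptor genes, and the 4 largest differences from 9 h each way; others were chosen after their values were seen, and some picked by the rule are not reported here. The members and lists were chosen with earlier results of these data known. Promoters were the 250 bases before 1 RefSeq start per gene in GRCr8. The alternatives were scaling, background correction, filter, probe choice, samples fitted, blocks, weights and left-out arrays.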

Additional observations from a re-analysis of the deposited data

Results flagged for a closer look

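The blockade effect differed between the times by an interaction test in limma (adjusted p under the threshold) for 6075 genes, and for 95 of the 126 genes chosen by the naming rule. Because the order of the scan days was reversed between the times, this difference cannot be told apart from scan day, and the values of 90 of the 95 follow as 26 h effect minus 9 h effect on the log2 scale.

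Npas4, Nmbr, Aadacl4fm1 and Pkd2l2 were not well above background in a 26 h group, and Aadacl4fm1 in a 9 h group too, so their fitted differences have no exact size. Calhm5 was well above background on only 1 of 3 untreated 26 h arrays and Dusp10 on only 1 of 3 blocked ones. Activity-regulated genes that were lower at both times are among those with a larger fall at 26 h, such as Npas4, Nr4a1, Arc and Bdnf, beside genes whose sign turned. The largest negative differences were 1700001K19Rikl -8.57, Klf12 -7.92, Alx4 -7.06, Aadacl4fm1 -6.00, Npas4 -3.84, Nmbr -3.48, Nr4a1 -2.73, Fcer1g -2.45, Cyp26b1 -2.30, Nfil3 -2.27, Grin1 -2.07, Arc -1.94, Dusp10 -1.85, Syn1 -1.85, Cacna1i -1.76, Dusp1 -1.73, Dlgap3 -1.71, Baiap2 -1.69, Bdnf -1.63, Pou3f1 -1.55, Rara -1.55 and Per3 -1.54. Differences between -1.5 and -1 were Gabrd -1.49, Cacna2d1 -1.35, Olig1 -1.33, Fezf2 -1.32, Vldlr -1.25, Rgs4 -1.24, Syt10 -1.24, Lcn2 -1.24, Mepe -1.21, Car9 -1.21, Hsp90ab1 -1.19, Cnih2 -1.18, Shmt2 -1.16, Vtn -1.12, Kcna1 -1.12, Uba1 -1.10, Camk1g -1.05, Tgfb3 -1.03 and Reln -1.02. The smaller negative differences were Ppargc1a -0.99, Adcyap1 -0.98, Cdh13 -0.96, Atp2a2 -0.96, Grin2a -0.86, Fstl4 -0.82, Thy1 -0.79, Gria2 -0.78, Nos1 -0.76, Crh -0.73, Psmb7 -0.73, Sdha -0.73, Pdk3 -0.70, Ndufs7 -0.69, Trpc6 -0.68, Hsph1 -0.66 and Cntn2 -0.60.

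The positive differences below 1 were Gria3 0.60, Ndufa6 0.65, Irf1 0.70, Hrk 0.70, Sdhd 0.82, Rpl15 0.86, Cacna1b 0.92, Acvr2b 0.96 and Scg5 0.98. Those between 1 and 1.5 were Nfatc3 1.01, Elavl4 1.09, Atf6 1.09, Pecam1 1.09, Kcna2 1.09, Flrt3 1.11, Erc2 1.11, Grid1 1.16, Pde1a 1.18, Il34 1.26, Fdft1 1.26, Mmp14 1.27, Kcnmb4 1.31, Tm7sf2 1.40 and Dlx1 1.44. The largest were Rasal3 1.60, Ces1d 1.76, Thrsp 1.78, Calhm5 2.45, Pkd2l2 2.82, Rsad2 3.04, Ckm 3.38 and Fzd6 4.13.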

How the results depend on the processing

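Over 27 alternatives, 2937 of 3266 pairs of a named gene and an alternative kept their side of the threshold, 315 were weaker and 14 became stronger. The sign turned in 10 pairs, 9 of Grin2b and 1 of Gria2, neither past the threshold, and in no pair of a called gene. Under these alternatives 46 of 117 called genes passed in every one run for them. Of 1976 list counts under an alternative, 1488 lay within 1.5 times the reported count. The counts of 1462 higher and 2013 lower genes became 2830 and 3909 with the replicate number as a block, and 3099 and 4207 with array weights. Fitting the 26 h arrays alone gave 913 higher, and at least 2-fold changes numbered 174 higher and 299 lower. The 6075 differences between the times became 9507 with the replicate block and 3529 with the slide as a random block. The 944 genes called in the average became 2797 with the replicate block, 2992 with the slide as a random block and 1804 with array weights. Leaving out 1 array at a time gave 507 to 1681 higher, 840 to 2795 lower, 4721 to 6185 differences and 560 to 981 in the average. An alternative chosen after seeing the data, without all arrays numbered 3, gave 198 higher, 279 lower, 3097 differences and 356 in the average, with fewer samples in each group. Apart from the smaller sample numbers, the cause of these changes was not tested. Genes near background have changes that depend on the background correction, and saturated ones, such as most ribosomal protein genes, have changes bounded by the scanner.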
